A study of Mus musculus with 4 samples.

Results

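The 10 genes described here are members of the AP-1 transcription factor family and a few further immediate early genes. They are the Fos family genes Fos, Fosb, Fosl1 and Fosl2, the Jun family genes Jun, Junb and Jund, the related factor Atf3, and the immediate early factors Egr1 and Nr4a1. They were picked by gene name out of 45706 genes in the table, because Fosb and Atf3 differed in the opposite direction from Fos in the Sp6+Sp8 cKO library. The levels of these genes in these libraries therefore chose them, and every value of theirs below is a description. The tissue was the regenerating mouse digit tip, collected 14 days after amputation and trimmed of everything proximal to the distal interphalangeal joint, and RNA-seq was run on 1 library for each of 4 genotypes. These were wildtype, a conditional knockout (cKO) of Sp6, a cKO of Sp8, and a cKO of both, Sp6+Sp8. Sp6 and Sp8 are zinc-finger transcription factors of the epidermis, and the study concerns enhancer-directed gene delivery to regenerating digits. Per the labels' protocols, knockout was induced by tamoxifen at 75 mg/kg on 5 consecutive days, with 5 days between the last dose and amputation. The protocols describe cuts through the distal and through the middle phalanx and do not tie either to these libraries. The same dose and days are listed for the wildtype library, although the protocol describes them for inducing knockout. The Cre driver, the strain, the age and sex of the mice, and the number of digits or animals in a library were not given in the sources used here.

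AP-1 is a dimer of a Fos protein with a Jun protein, or of Jun proteins with each other, joined through their leucine zippers and bound to short DNA motifs through their basic regions. Fos, Fosb, Jun, Egr1 and Nr4a1 are classical immediate early genes: growth factors, calcium, mechanical stress or wounding switch them on within minutes through factors already present in the cell, and their mRNAs are short-lived. Fosl1, Fosl2 and Jund are more slowly induced or more steadily expressed. In skin, AP-1 proteins are known regulators of keratinocyte differentiation and of the wound response, and in bone Fos is required for osteoclast formation.

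Library totals ran from 12588511 to 21834883 counts, and levels are given as CPM, counts per 1000000 counts of scaled library size, where 3 counts corresponded to between 0.138 and 0.238 CPM. All 10 genes were at or above 1 CPM somewhere, as were 17332 genes in all. With 1 library per genotype no difference could be set against variation between animals, no test was run, and each 95% interval below covers counting error only. In bulk tissue, fewer cells of a type and less RNA per cell cannot be told apart. The 3 cKO libraries carry batch 1 in the labels and wildtype batch 3, so batch and genotype cannot be told apart where wildtype is one side of a comparison, and only the cKO libraries can be compared inside 1 batch. The targeted transcripts were 3.34-fold lower (Sp6, in Sp6 cKO) and 3.82-fold lower (Sp8, in Sp8 cKO) than in wildtype. In Sp6+Sp8 cKO they were 1.69-fold (Sp6) and 4.78-fold (Sp8) lower, so the Sp6 transcript was only partly reduced there. Xist was 27.9 CPM in Sp8 cKO and between 1526 and 3528 CPM in the other libraries, so the sex makeup of the libraries differed. A gene is called past the size rule below where its log2 ratio was at least 1 in either direction, its CPM at least 1 in either library, and the exact interval of its ratio excluded 1.

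The DNA just before the transcription start is shown first for Fos and Fosb, the paralogues that differed in opposite directions, and for Atf3 and Nr4a1, which were high in the same library as Fosb. RefSeq promoter sequences on GRCm38.p6 were at hand for 8 of the 10 genes, all but Fosl1 and Egr1. The 150 bases that end 1 base before the RefSeq start are given 5′ to 3′ on each gene's own strand. They lie at chr12:85473740-85473889 (plus strand) for Fos, chr7:19310046-19310195 (minus strand) for Fosb, chr1:191183334-191183483 (minus strand) for Atf3 and chr15:101266696-101266845 (plus strand) for Nr4a1. Capitals mark the core of the cAMP response element, TGACG, the GC box GGGCGG to which Sp family factors are known to bind, and TATAAA, each on either strand.
Fos: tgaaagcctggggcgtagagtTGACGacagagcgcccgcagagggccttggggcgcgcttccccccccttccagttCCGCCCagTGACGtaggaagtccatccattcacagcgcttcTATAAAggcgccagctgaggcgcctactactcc
Fosb: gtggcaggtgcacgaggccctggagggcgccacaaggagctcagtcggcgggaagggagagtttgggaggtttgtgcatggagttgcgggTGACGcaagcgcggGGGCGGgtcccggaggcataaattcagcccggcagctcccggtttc
Atf3: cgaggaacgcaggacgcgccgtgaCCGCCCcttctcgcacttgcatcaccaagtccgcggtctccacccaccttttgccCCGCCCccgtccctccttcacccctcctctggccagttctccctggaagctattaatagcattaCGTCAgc
Nr4a1: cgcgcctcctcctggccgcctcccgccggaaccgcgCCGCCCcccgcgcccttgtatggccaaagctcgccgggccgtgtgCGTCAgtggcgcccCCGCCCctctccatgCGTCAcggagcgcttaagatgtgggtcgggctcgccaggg
Fos and Fosb both held TGACG on the gene's strand at a similar distance, from base -66 in Fos and from base -60 in Fosb, where base -1 is the last before the start. Fos also held TATAAA from base -33. Fosb had no exact match, but its sequence reads cataaa at a similar distance, and only exact matches were counted. The RefSeq start of Atf3 lay 34706 bases and that of Nr4a1 12577 bases inside the outermost GENCODE start of the gene, so these windows belong to internal starts. The starts also differ for Fosl2, whose RefSeq start lay 671 bases inside the GENCODE start, with all 150 bases before it in annotated exon, and for Jund, whose RefSeq start lay 1210 bases before the GENCODE start.

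Over the full windows of 250 bases before and 50 after the start, TGACG was found in 5 of the 8 genes (Fos, Fosb, Junb, Atf3 and Nr4a1) and in 20.8% of 32851 promoter windows. The GC box was found in 6 of 8 (all but Junb and Jund) and in 35.7% of windows. The site GCGNGGGCG, bound by Egr factors and able to overlap the GC box, was found in Fosb, Fosl2 and Nr4a1, 3 of 8, and in 5.55% of windows. TATAAA was in Fos and Junb, 2 of 8, and in 13.6% of windows. The full cAMP response element TGACGTCA, the AP-1 site TGANTCA and the CArG box of serum response factor were in 0 of 8, against 1.79%, 7.81% and 1.63% of windows. Sites further than 250 bases before the start were not searched, and Egr1 and Fosl1 had no window. A count of 0 of 8 therefore does not mean that these genes lack such sites. Base composition was not matched, and the 150 bases before the start held between 45.3% (Jund) and 75.3% (Nr4a1) G and C. As the map of motif positions shows, GC boxes were in Fosb, Atf3 and Nr4a1, which were high in Sp6+Sp8 cKO, and in Fos. They were also in Fosl2 and Jun, which were nearly level across the libraries, but not in Junb or Jund. The part of GC boxes in the levels was not tested.

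**Figure D1:**
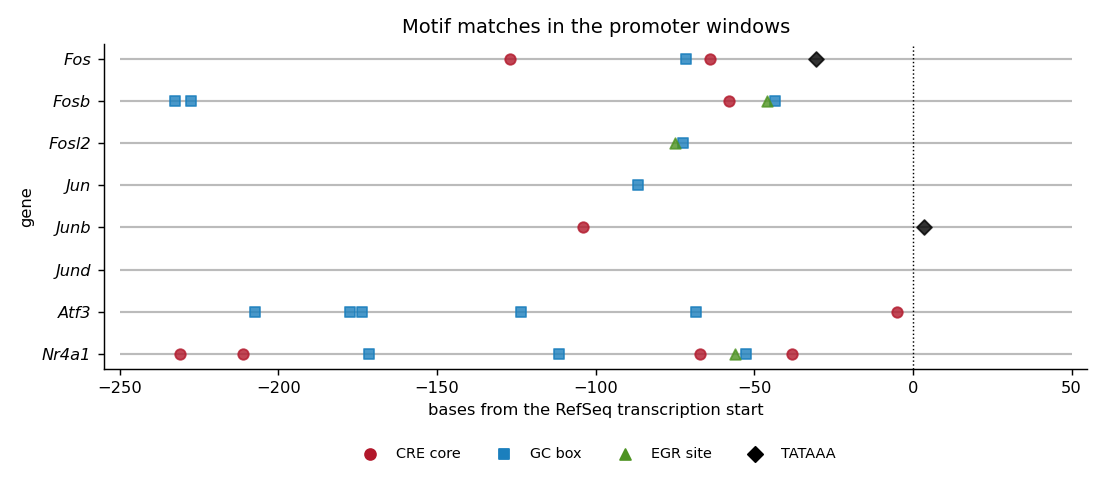
Positions of motif matches in the promoter windows of 8 genes, by distance in bases from the RefSeq transcription start (dotted line). Red circles are the core TGACG, blue squares the GC box, green triangles the Egr site and black diamonds TATAAA, on either strand. Fos and Fosb each have a red circle near base -60, and Jund has no match in its window, which lies around a start 1210 bases before the GENCODE start.

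Fosb was the Fos family gene that differed most between the libraries. Fosb (ENSMUSG00000003545, GRCm38 chromosome 7, 19302696 to 19310051, minus strand) had 221 counts in wildtype and 247, 110 and 1236 in the Sp6, Sp8 and Sp6+Sp8 cKO libraries. In CPM these were 10.2, 19.2, 8.73 and 80.3. The Sp6+Sp8 cKO library was high, Sp6 cKO stood apart from the other libraries at a lower level, and the intervals of Sp8 cKO and wildtype overlapped. Against wildtype Fosb was 7.90-fold higher in Sp6+Sp8 cKO (95% interval 6.84 to 9.16). Within batch 1 it was 4.19-fold higher than in Sp6 cKO (3.66 to 4.83) and 9.20-fold higher than in Sp8 cKO (7.56 to 11.3). The annotation holds 7 Fosb transcripts, and the counts are per gene, so the full-length and the truncated product of this gene cannot be told apart.

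Fos, the founding member of the family, had another order of levels. Fos (ENSMUSG00000021250, chromosome 12, 85473890 to 85477273, plus strand) had 549 counts in wildtype and 416, 188 and 216 in the Sp6, Sp8 and Sp6+Sp8 cKO libraries, or 25.3, 32.3, 14.9 and 14.0 CPM. Both libraries with a Sp8 knockout were low and had overlapping intervals, and Sp6 cKO was highest. Fos was 1.80-fold lower in Sp6+Sp8 cKO than in wildtype (95% interval 1.53 to 2.12) and 1.69-fold lower in Sp8 cKO (1.43 to 2.01), and both log2 ratios, -0.84 and -0.75, lay inside the size rule. Within batch 1 the differences were larger, since Fos was 2.30-fold lower in Sp6+Sp8 cKO (1.94 to 2.72) and 2.16-fold lower in Sp8 cKO (1.81 to 2.58) than in Sp6 cKO, and both were past the rule.

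The Fos-related genes Fosl1 and Fosl2 encode the proteins Fra-1 and Fra-2, which lack the strong activation domain of Fos. Fosl1 (ENSMUSG00000024912, chromosome 19, 5447547 to 5455946, plus strand) stood at 4.001 CPM in wildtype and 3.57, 3.89 and 10.7 in the Sp6, Sp8 and Sp6+Sp8 cKO libraries, from 87, 46, 49 and 164 counts. The first 3 had overlapping intervals and the last was 2.66-fold above wildtype (95% interval 2.04 to 3.50). Ccdc85b, which overlaps Fosl1 on the other strand, had between 4 and 16 counts in a library and was not high in Sp6+Sp8 cKO, at 7 counts. Fosl2 (ENSMUSG00000029135, chromosome 5, 32135801 to 32157842, plus strand) was at 536, 566, 506 and 543 CPM in wildtype and the Sp6, Sp8 and Sp6+Sp8 cKO libraries. Its highest library was only 1.12 times its lowest.

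The Jun family was nearly level across the 4 libraries. Jun (ENSMUSG00000052684, chromosome 4, 95049034 to 95052222, minus strand) was at 58.6 CPM in wildtype and 55.1, 49.9 and 57.9 in the Sp6, Sp8 and Sp6+Sp8 cKO libraries, and each library's interval overlapped that of the next in order. Junb (ENSMUSG00000052837, chromosome 8, 84974484 to 84978718, minus strand), whose product is a weaker activator than Jun in many settings, was at 81.9, 76.0, 76.1 and 64.3 CPM in the same order. Sp6+Sp8 cKO was its lowest library, 1.27-fold below wildtype (95% interval 1.18 to 1.38). Jund (ENSMUSG00000071076, chromosome 8, 70698949 to 70700616, plus strand), the most steadily expressed of the family, was at 49.4, 56.5, 52.7 and 56.0 CPM, with overlapping intervals between neighbours in order. Jun and Jund consist of 1 exon each in the annotation. All 3 genes overlap a gene on the other strand, and reads from such a pair are separated only if the counting used strand, which was not given in the sources used here. Those partners were Junos, with 3 to 14 counts, on Jun, Gm11175, with 0 to 4 counts, on Jund, and the abundant Prdx2 on Junb. Prdx2 was at 135, 111, 124 and 81.2 CPM, lowest in the same library as Junb, so the Junb level is the uncertain one.

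Atf3, a stress-induced factor that pairs with Jun proteins, had the lowest wildtype level of the 10 genes per kb of exon, at 0.705 CPM per kb, and a ratio as large as that of Fosb. Atf3 (ENSMUSG00000026628, chromosome 1, 191170296 to 191218039, minus strand) had 33 counts in wildtype and 41, 28 and 190 in the Sp6, Sp8 and Sp6+Sp8 cKO libraries, or 1.52, 3.18, 2.22 and 12.3 CPM. The Sp6+Sp8 cKO library was high and the interval of Sp8 cKO overlapped those of both wildtype and Sp6 cKO. Atf3 was 8.14-fold higher in Sp6+Sp8 cKO than in wildtype (95% interval 5.60 to 12.2), 3.88-fold higher than in Sp6 cKO (2.76 to 5.59) and 5.56-fold higher than in Sp8 cKO (3.72 to 8.58). Its ratio in Sp6 cKO was past the size rule by a small margin, with a log2 ratio of 1.01, and was inside it with library totals as the scaling or a prior count of 5.

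Nr4a1, which encodes the orphan nuclear receptor Nur77, was high in the same library. Nr4a1 (ENSMUSG00000023034, chromosome 15, 101254269 to 101274795, plus strand) was at 12.2 CPM in wildtype and 10.6, 12.2 and 28.99 in the Sp6, Sp8 and Sp6+Sp8 cKO libraries, from 265, 137, 154 and 446 counts. The first 3 overlapped, and Sp6+Sp8 cKO was 2.38-fold above wildtype (95% interval 2.04 to 2.78). Egr1 (ENSMUSG00000038418, chromosome 18, 34859823 to 34864984, plus strand), a zinc-finger factor induced by serum and by wounding, was at 172, 206, 159 and 243 CPM in wildtype and the Sp6, Sp8 and Sp6+Sp8 cKO libraries. None of its 4 intervals overlapped, but its highest library was 1.53 times its lowest and no ratio passed the size rule.

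**Figure D2:**
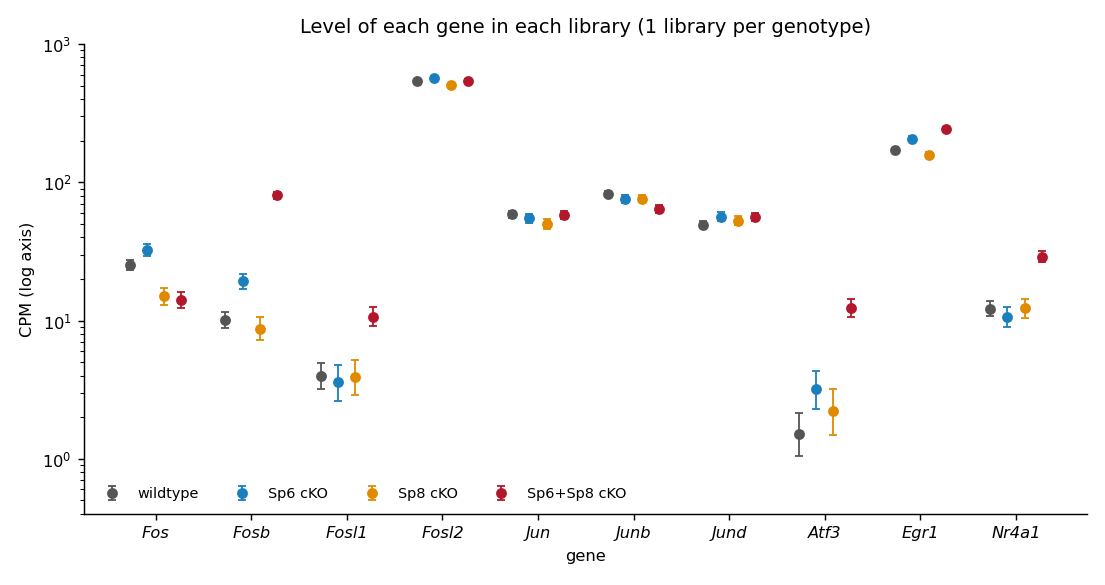
Level of each of the 10 genes in each library, in CPM on a log axis, with 1 point per library and exact Poisson 95% intervals that cover counting error only. Fosb, Fosl1, Atf3 and Nr4a1 have their Sp6+Sp8 cKO point (red) above the other libraries, Fos has it lowest, at 14.0 CPM, and Fosl2, Jun and Jund are level.

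Counted over the 10 genes, 4 were higher and 0 lower past the size rule in Sp6+Sp8 cKO against wildtype, namely Fosb, Atf3, Fosl1 and Nr4a1 with log2 ratios of 2.97, 2.92, 1.39 and 1.24. Of 16861 genes compared, 5.79% passed, 2.84% as higher and 2.95% as lower. This contrast chose the genes, so nothing is read from that count. The median log2 ratio of the 10 genes was 0.34 and of all genes tested -0.015, and 7 of 10 ratios were above 0. The gap between the highest and the lowest of the 10 log2 ratios was 3.81. In log2 ratio, 41 genes lay above Fosb and 44 above Atf3.

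The single knockouts differed less from wildtype. In Sp6 cKO against wildtype only Atf3 passed the size rule, while of 16884 genes 4.40% did in all, 2.24% higher and 2.16% lower. The median of the 10 log2 ratios was 0.14. Fosb, at 0.91, and Fos, at 0.35, were next highest. In Sp8 cKO against wildtype 0 of 10 passed, while of 16878 genes 3.82% did, 2.27% higher and 1.55% lower. The median was -0.10, with Fos lowest at -0.75 and Atf3 highest at 0.51. The comparisons with wildtype share that library, so a low or high wildtype count enters each of them.

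Within batch 1 the Sp6+Sp8 cKO library again had the same 4 genes higher past the rule. Against Sp6 cKO 4 of 10 were higher and 1, Fos, was lower, while 3.97% of 16848 genes passed, 1.89% higher and 2.08% lower. The log2 ratios were 2.06 for Fosb, 1.92 for Atf3, 1.55 for Fosl1, 1.44 for Nr4a1 and -1.19 for Fos. Against Sp8 cKO 4 were higher and 0 lower, while 4.68% of 16889 genes passed, 1.88% higher and 2.80% lower. The values for Fosb, Atf3, Fosl1 and Nr4a1 were 3.18, 2.41, 1.42 and 1.24. Fos was at -0.09 there. These contrasts share the Sp6+Sp8 cKO library with the one that chose the genes. Between the single knockouts, Fosb and Fos were both lower in Sp8 cKO than in Sp6 cKO, with log2 ratios of -1.12 and -1.11, and the other 8 genes were inside the rule, while 3.10% of 16912 genes passed, 1.75% higher and 1.35% lower. Fosb and Fos thus had the same direction between the single knockouts and opposite directions between Sp6+Sp8 cKO and Sp6 cKO.

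**Figure D3:**
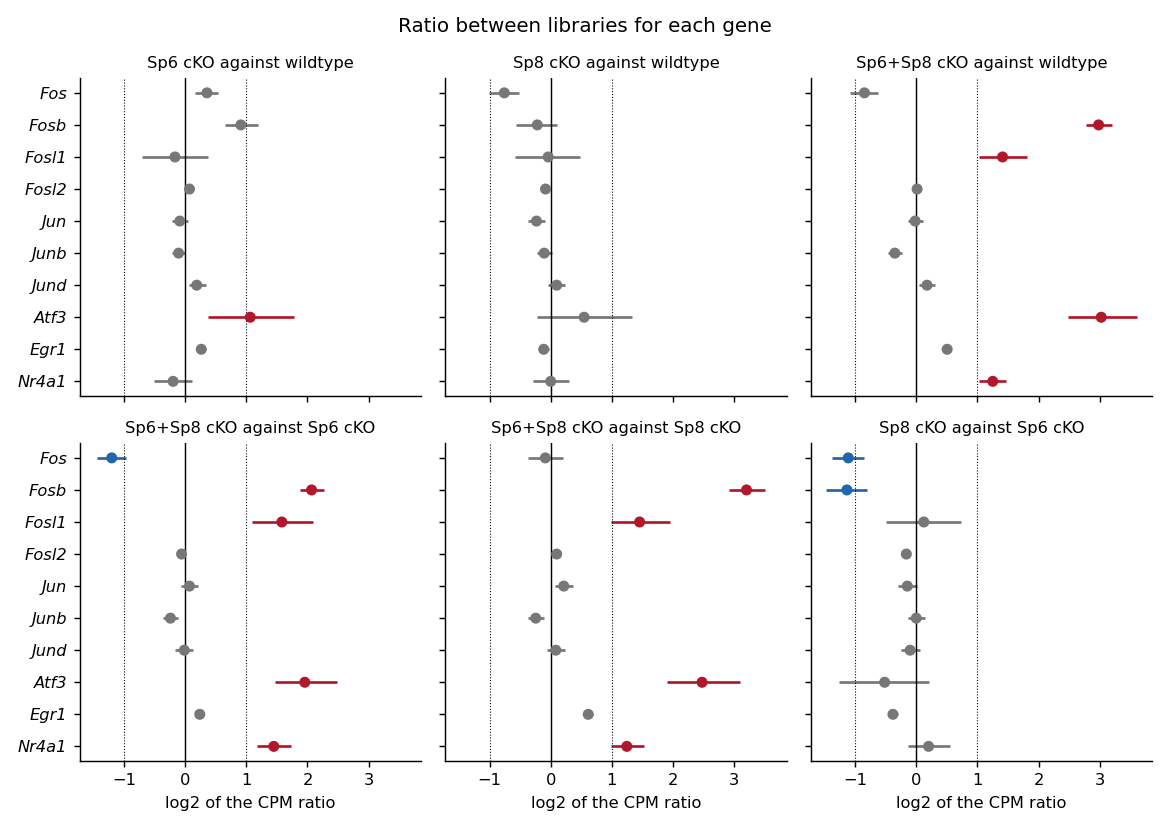
log2 of the CPM ratio of each gene in 6 comparisons between libraries, with exact 95% intervals for counting error only. Red points are higher and blue points lower past the size rule, and dotted lines mark a log2 ratio of 1 in either direction. Fosb, Fosl1, Atf3 and Nr4a1 are red in the 3 comparisons of Sp6+Sp8 cKO with another library, and Fos is blue against Sp6 cKO, at -1.19.

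Levels were compared between genes as CPM per kb of exon, taking the union of all annotated exons of a gene. On that scale Fosl2 led the Fos family in each library, with 55.4 CPM per kb in wildtype against 10.7 for Fos, 1.97 for Fosl1 and 1.63 for Fosb. Fosl2 made up 79.4% of the family's summed CPM per kb in wildtype and 75.9%, 84.4% and 70.0% in the Sp6, Sp8 and Sp6+Sp8 cKO libraries. The share of Fosb was 2.33%, 3.99%, 2.26% and 16% in the same order, and that of Fos 15.4%, 17.8%, 10.3% and 7.44%. Fosb was thus the second most abundant Fos family transcript in Sp6+Sp8 cKO, a place that Fos held in the other 3 libraries. With the longest coding transcript as the length, the shares of Fosb and Fos in Sp6+Sp8 cKO were 18.2% and 5.70%, and in wildtype 2.72% and 12.1%.

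The summed level of the Fos family was 69.8, 77.0, 61.9 and 80.2 CPM per kb in wildtype and the Sp6, Sp8 and Sp6+Sp8 cKO libraries. Most of that sum was the level gene Fosl2, so it says little about the other members. From wildtype to Sp6+Sp8 cKO, Fosb went from 1.63 to 12.9 CPM per kb, Fosl1 from 1.97 to 5.24 and Fos from 10.7 to 5.97. The fall of Fos was thus smaller than the rise of Fosb. The Jun family summed to 83.6, 84.2, 80.3 and 79.6 CPM per kb, with Junb and Jund above Jun in each library. Junb took 42.6% of that sum in wildtype and 35.1% in Sp6+Sp8 cKO, and Jund 35.4% and 42.1%.

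**Figure D4:**
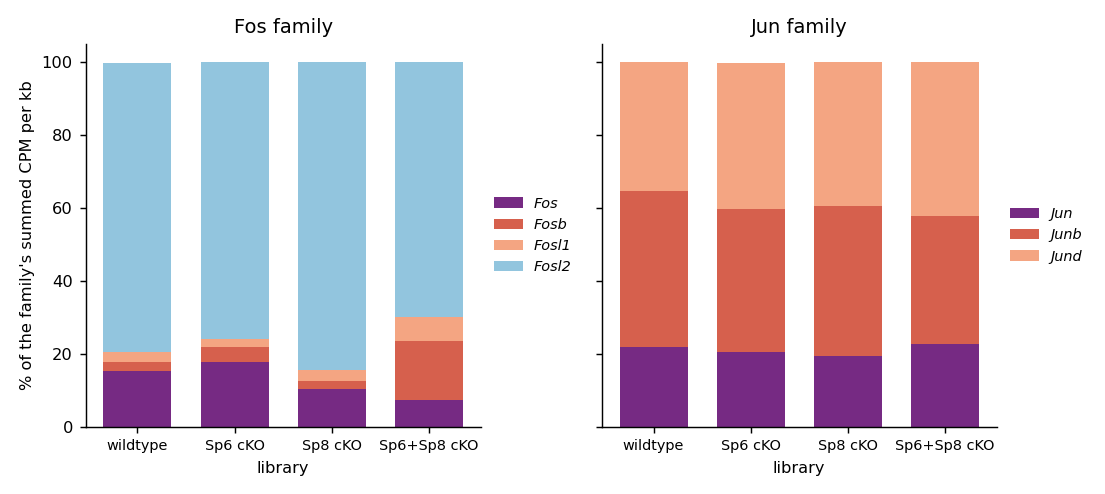
Share of each gene in the summed CPM per kb of the Fos family (left) and the Jun family (right), in percent, 1 bar per library. The Fosb part is 16% in Sp6+Sp8 cKO and between 2.26% and 3.99% in the other libraries.

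Ratios of 2 genes inside 1 library do not depend on how libraries are scaled. The ratio of Fosb to Fos, per kb, was 0.152 in wildtype (95% interval 0.129 to 0.178), 0.224 in Sp6 cKO (0.190 to 0.262), 0.220 in Sp8 cKO (0.173 to 0.280) and 2.16 in Sp6+Sp8 cKO (1.86 to 2.5). The single knockouts had overlapping ratios although both genes were lower in Sp8 cKO than in Sp6 cKO. The ratio of Atf3 to Fos was 0.0656, 0.108, 0.163 and 0.960 in the same order, and that of Egr1 to Fos 3.56, 3.36, 5.57 and 9.08. The ratio of Junb to Jun was 1.94, 1.91, 2.12 and 1.54.

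Further immediate early genes were counted beside the 10, and no difference between the lists was tested. Of the paralogues of Egr1 and Nr4a1, 1 of 4 measured was higher past the rule in Sp6+Sp8 cKO, the Nr4a1 paralogue Nr4a3. Nr4a3 was at 6.39 CPM in wildtype and 8.14, 7.70 and 17.4 in the Sp6, Sp8 and Sp6+Sp8 cKO libraries, with a log2 ratio of 1.43 to wildtype, 1.09 to Sp6 cKO and 1.16 to Sp8 cKO. Egr2, Egr3 and Nr4a2 had log2 ratios to wildtype of 0.33, 0.04 and 0.51 in that library. In a list of 29 further measured immediate early genes, 2 were higher and 0 lower in Sp6+Sp8 cKO against wildtype, with a median of 0.03, where the median of all measured genes was -0.02 and 5.79% of all genes compared were past the rule. These were Ptgs2, the inducible cyclooxygenase of prostaglandin synthesis, at 1.76, and the clock gene Per1, at 1.08. Against Sp6 cKO 2 of 29 were higher (Dusp2, a MAP kinase phosphatase, at 1.33 and Ptgs2 at 1.03), and against Sp8 cKO 1 was (Ptgs2, at 1.10). Of all genes compared 1.89% and 1.88% were higher there. In Sp6 cKO 1 of 29, Dusp2 at -1.21, was lower than in wildtype, and in Sp8 cKO 0 of 29 passed. Of all genes compared 4.40% and 3.82% passed in these comparisons, so both counts are near those shares. Both Dusp2 calls rest on 15 counts in Sp6 cKO, and Dusp2 was at 3.12 CPM in Sp6+Sp8 cKO and 2.85 in wildtype.

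Genes that act before AP-1 or bind with it were counted in the same way. Among 18 measured partners and related basic leucine zipper factors, 1 was higher past the rule in Sp6+Sp8 cKO against wildtype and 0 were lower (median 0.17). It was Cebpd, a C/EBP factor of the acute phase response, at 5.01 CPM in wildtype and 11.3 in Sp6+Sp8 cKO. Of all genes compared 5.79% passed in Sp6+Sp8 cKO against wildtype, so 1 of 18 is near that share. In the other 5 comparisons 0 of 18 passed, where between 3.10% and 4.68% of all genes did. At such shares few calls are to be expected in lists of this size or smaller. Of 11 regulators around serum response factor and CREB, and of 17 MAP kinases and their activating kinases, 0 were past the rule in each of the 6 comparisons, and their medians in Sp6+Sp8 cKO against wildtype were 0.02 and -0.11. Transcript levels do not report the phosphorylation by which these proteins act.

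Of 26 measured genes known as AP-1 targets in other settings, 5, 4 and 6 were higher than in wildtype past the rule in the Sp6, Sp8 and Sp6+Sp8 cKO libraries, and 1 was lower, in the last. Of all genes compared 2.24%, 2.27% and 2.84% were higher in these libraries, and the difference from the list was not tested. The medians were 0.28, 0.29 and 0.26. Mmp9, a gelatin-degrading protease, was at 30.1 CPM in wildtype and 94.98, 156 and 164 in the Sp6, Sp8 and Sp6+Sp8 cKO libraries. Its Sp8 cKO and Sp6+Sp8 cKO levels had a log2 ratio of 0.07. The chemokines Cxcl2 and Cxcl1 had log2 ratios of 2.95 and 2.22 in Sp6+Sp8 cKO, from 6 counts each in wildtype. Il11, a cytokine, had 16 counts against 3, a 7.54-fold ratio with a wide interval (95% interval 2.16 to 40.4). Mmp9 is also on the osteoclast list. The gene that was lower was Hmox1, heme oxygenase, at -1.06. Within batch 1, 1 of 26 (Il11, 4.47-fold, 1.28 to 23.9) was higher against Sp6 cKO and 0 against Sp8 cKO, and 0 were lower in either. Of all genes compared 1.89% and 1.88% were higher in these comparisons.

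**Figure D5:**
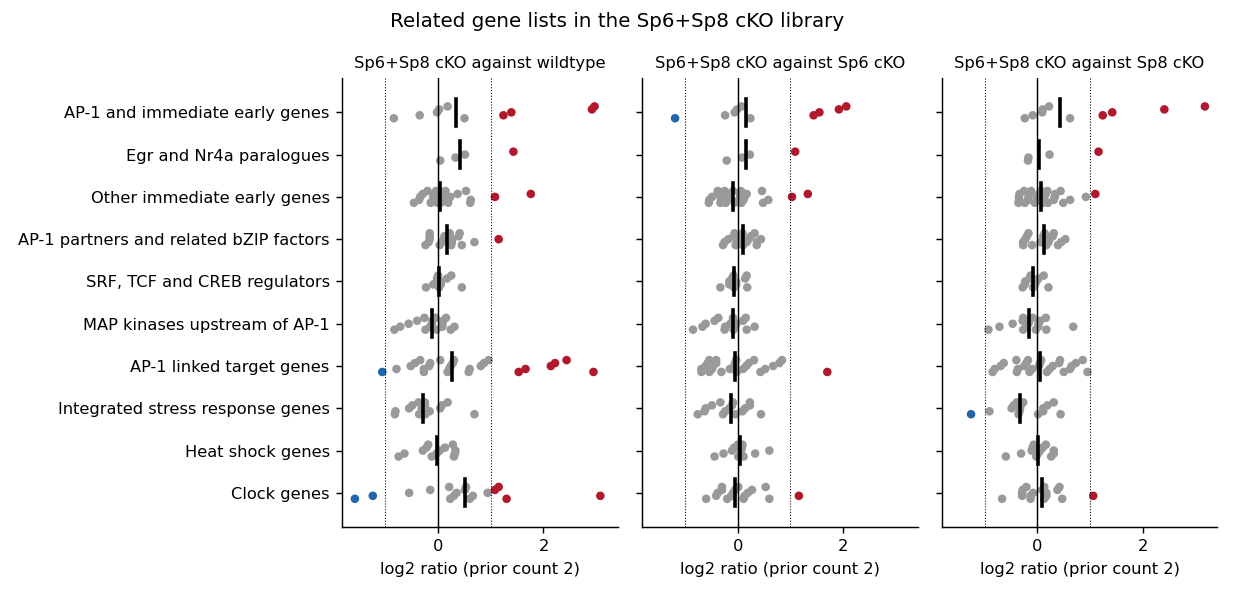
log2 ratios of the genes in 10 lists, for Sp6+Sp8 cKO against wildtype (left), Sp6 cKO (middle) and Sp8 cKO (right), with 1 point per measured gene, red where higher and blue where lower past the size rule, and a black bar at the median. The top row holds the 10 genes described here, with 4 red points in each panel, and medians of the other lists lie between -0.32 and 0.51.

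The genes whose 3 log2 ratios to wildtype lay nearest to those of Fosb, Atf3 and Fos were sought among 11485 other protein-coding genes with a CPM of at least 5 in some library, leaving out the 10 genes themselves and predicted genes with Gm or Rik names. Nearness was the Euclidean distance over the 3 cKO libraries, in log2 units. Fosb and Atf3 themselves lay 0.74 apart. Among the other genes the 5 nearest to Fosb were Serpinb3d, Zc3h12a, Ptgs2, BC100530 and Nod2, at distances from 1.25 to 1.52. Serpinb3d, a clade B serpin, was at 4.46, 17.2, 6.19 and 29.6 CPM in wildtype and the Sp6, Sp8 and Sp6+Sp8 cKO libraries. For Atf3, again without Fosb, they were Serpinb3d, Ptgs2, the osteoclast proton pump gene Atp6v0d2, Rnase2b and the matrix protease Mmp3, at 0.94 to 1.35. For Fos they were Klk14, Ceacam2, Mxd3, Slc2a9 and Nmu, at 0.29 to 0.44. Klk14, a kallikrein protease of the epidermis, was at 84.2, 109.6, 42.2 and 52.8 CPM. With 3 ratios that share 1 wildtype library, such nearness describes these libraries only.

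Marker lists of cell types also differed between the libraries, not all of them most in Sp6+Sp8 cKO, and their part in the values above was not tested. In Sp6+Sp8 cKO against wildtype 5.79% of all genes compared passed the size rule, 2.84% higher and 2.95% lower. At that share 1 call in a short list says little, and no list was tested against it. In that comparison 5 of 10 measured osteoclast markers were higher and 0 lower. The summed CPM of the list was 288, 428, 548 and 574 in wildtype and the Sp6, Sp8 and Sp6+Sp8 cKO libraries. For neutrophil markers 3 of 7 measured were higher and 2 lower, with sums of 39.7, 93.8, 70.3 and 110.6 CPM. That sum mostly follows S100a8, at 8.83 CPM in wildtype and 69.2 in Sp6+Sp8 cKO, and S100a9, at 1.52 and 15.4. It does not stand for the list as a whole. In another comparison, Sp6+Sp8 cKO against Sp8 cKO, 2 of the 7 were higher and 2 lower, where 4.68% of all genes passed. The lower ones were Mpo and Elane, with log2 ratios of -1.45 each, and Elane rests on 5 counts against 14. For T cell markers 3 of 5 measured were higher in Sp6+Sp8 cKO than in wildtype, to which the counts below also refer, with sums of 5.84, 22.5, 9.61 and 21.1 CPM. Suprabasal keratinocyte markers had 1 of 7 lower (Krtdap, at -1.06) and sums of 18614, 18454, 15016 and 13291 CPM, and basal keratinocyte markers had 0 of 7 past the rule and sums of 6628, 6012, 6087 and 6063 CPM. None of the listed markers of these 5 cell types was at 0 counts in all libraries. Osteoblast markers, the other defining cells of this tissue, had 1 of 8 higher and 2 lower (the osteocalcin genes Bglap at -1.56 and Bglap2 at -1.09), with sums of 8237, 8564, 8255 and 6753 CPM. Erythroid markers had 1 of 6 higher and sums of 266.6, 338.7, 692.1 and 352.7 CPM. No fibroblast, endothelial, macrophage, mast cell or Schwann cell marker was past the rule in Sp6+Sp8 cKO against wildtype, and skeletal muscle markers summed to at most 1.43 CPM. Mitochondrially encoded genes took 4.73%, 4.71%, 4.35% and 6.24% of the counts.

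Clock genes also differed between the libraries. Of 17 measured, 4 were higher and 2 lower in Sp6+Sp8 cKO than in wildtype, where 5.79% of all genes compared passed. Per2, Cry1, Arntl and Npas2 were at 3.08, 1.30, -1.24 and -1.58. Against wildtype, 2 were higher and 1 lower in Sp6 cKO, and 2 were higher and 0 lower in Sp8 cKO. Of all genes compared 4.40% and 3.82% passed there. The median log2 ratios of the list were 0.60, 0.47 and 0.51 in the Sp6, Sp8 and Sp6+Sp8 cKO libraries, and Per2 was at 1.92 and 2.02 in the single knockouts. Per1, which is both a clock gene and an immediate early gene, was at 101 CPM in wildtype and 195.9, 195.9 and 214 CPM in the Sp6, Sp8 and Sp6+Sp8 cKO libraries. Within batch 1 Per2 was the 1 clock gene past the rule, at 1.16 against Sp6 cKO and 1.06 against Sp8 cKO. In these comparisons 3.97% and 4.68% of all genes passed, so a count of 1 in 17 is near those shares. The hour of tissue collection was not given in the sources used here, and the part of the clock in the levels of the 10 genes was not tested.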

How the data were processed

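Gene counts of 4 RNA-seq libraries were analysed, 1 per genotype. Per the labels' protocols, libraries were made from poly-A RNA with strand marked by dUTP and read as pairs. The authors deposited estimated counts of reads for each gene, of the kind Salmon produces and unscaled, and these were rounded. Salmon, STAR, featureCounts, deepTools, edgeR and Trim Galore 0.6.4, with build GRCm38, stand in the submitters' processing notes with no roles given. In the table, 1 column fits none of the samples and was left out. Reads shared by close gene copies make those genes uncertain.

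Libraries were scaled by TMM (edgeR 4.0.16, R 4.3.3). A prior count of 2 was added for log2 ratios, and folds came from CPM. Intervals were exact Clopper-Pearson (ratios, conditional on the summed counts) or exact Poisson (levels), at 95%. No molecular identifiers are named in the labels, and PCR copies are not independent molecules, so intervals may be too narrow. The size rule, as the report states it, was checked on simulated counts. Positions and exon lengths came from GENCODE M21 on GRCm38, in which 98.8% of identifiers were found, and promoter sequences from RefSeq on GRCm38.p6.

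The 10 genes and the gene lists were chosen with earlier results of these data known. Named genes were the 10, Sp6 and Sp8, up to 4 genes past the size rule per list and comparison (2 for cell type markers), and the 5 genes nearest to Fosb, Atf3 and Fos. Egr2, Egr3, Nr4a2, Hmox1, Xist, Kdm5d, Mmp9 beyond its own rule, Per1 in the single knockouts and the genes overlapping Fosl1, Jun, Junb and Jund were named after their values were seen. Alternatives were library totals, upper-quartile factors, DESeq2 1.42.0 size factors, prior counts of 0.5 and 5, no CPM filter and a CPM of at least 5. A fold of 1.5 and the longest coding transcript as length were added after seeing the data. A planned comparison of protein sequences was not made.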

Additional observations from a re-analysis of the deposited data

How the results depend on the processing

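The 10 genes kept their log2 ratios within counting error under the 3 other scalings and the 2 other prior counts, in all 300 values computed, and 1 call changed. That was Atf3 in Sp6 cKO against wildtype, with log2 ratios from 0.93 to 1.05. The count of the 10 genes past the size rule in that comparison, 1, became 0 with library totals, with a prior count of 5 or with a CPM of at least 5, and 2 with a fold of 1.5. With a fold of 1.5 the count in Sp8 cKO against wildtype became 1 (Fos). The counts in the other 4 comparisons stayed within 1.5 times. The order of levels over the libraries differed in 7 of 30 cases, for Jun, Junb, Jund and Nr4a1, where neighbours overlapped.

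All-gene counts moved with the filter and the fold. With a CPM of at least 5 they were 255, 192 and 376 for the Sp6, Sp8 and Sp6+Sp8 cKO libraries against wildtype, 214 and 277 for Sp6+Sp8 cKO against Sp6 cKO and Sp8 cKO, and 135 for Sp8 cKO against Sp6 cKO. With a fold of 1.5 they were 1534, 1377, 2322, 1606, 1834 and 1018 in that order. With no filter Sp8 cKO against wildtype gave 973. Of the list medians, 3 changed sign, all for Sp6+Sp8 cKO: AP-1 target genes against Sp8 cKO became -0.10 and T cell markers against Sp6 cKO -0.25 with a CPM of at least 5, and neutrophil markers against Sp8 cKO -0.16 with no filter. Fewer or more genes enter under these settings. The low counts of Atf3 and Fosl1 limit their precision most. No paired analysis was possible because each group holds 1 library.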

Other observations

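Lists of general stress genes were counted by the same size rule, which 5.79% of all genes passed in Sp6+Sp8 cKO against wildtype, so few calls are to be expected in lists of this size. Of 16 measured genes of the integrated stress response, the pathway in which Atf4 switches on Atf3 and amino acid genes, 0 passed the size rule in Sp6+Sp8 cKO against wildtype or against Sp6 cKO, and the medians were -0.28 and -0.14. Against Sp8 cKO 1 was lower, Chac1, which encodes a glutathione-degrading enzyme, at 68.8 CPM against 164.9 and a log2 ratio of -1.26. Of 13 heat shock genes 0 passed in any of the 6 comparisons, and the medians for Sp6+Sp8 cKO were -0.03 against wildtype, 0.05 against Sp6 cKO and 0.01 against Sp8 cKO.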
